A study of Mus musculus with 8 samples.

Results

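The genes described here are RPSAP52, the chromatin protein genes HMGA1 and HMGA2, the RNA-binding protein genes IGF2BP1, IGF2BP2 and IGF2BP3, and LIN28B. They were taken by name, 7 genes of 58304 kept from the deposited expression table, and each had 1 entry. The set was chosen by measured values as well as by name: it was built round RPSAP52, selected on its rFGF4-to-PBS difference in this same table. Differences of these 7 genes between the groups are therefore given as a description, with no test. Expression in wounds given recombinant fibroblast growth factor 4 (rFGF4) was to be compared with that in wounds given phosphate-buffered saline (PBS). Per the labels, RNA came from skin within 2 mm of wounds in C57BL/6 mice of 6 to 8 weeks, 6 days on, with 4 libraries from PBS wounds and 4 from rFGF4 wounds. Dose, wound size and whether each library is a separate animal are not given in the labels, so the spread between libraries may be technical. The table holds human genes: 58825 of 58825 identifiers were human and 0 were mouse, so labels and table disagree on the species. Its columns name the treatment and replicate, so "PBS libraries" and "rFGF4 libraries" mean the columns so named, and whether they hold the labelled mouse wounds is unresolved.

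The 7 genes belong to one regulatory neighbourhood. HMGA1 and HMGA2 are small proteins that bind the minor groove of AT-rich DNA through AT-hooks and bend it, and both are abundant in embryonic and fast-growing cells. IGF2BP1, IGF2BP2 and IGF2BP3 bind mRNAs, among them IGF2 mRNA and mRNAs carrying N6-methyladenosine (m6A), and affect their stability, transport and translation. LIN28B binds precursors of the let-7 microRNAs and blocks their maturation. let-7 in turn represses HMGA2, LIN28B and the IGF2BP mRNAs. RPSAP52 is a transcribed pseudogene of the ribosomal protein gene RPSA, lies antisense at the start of HMGA2, and has been described as a partner of IGF2BP2 that acts on the LIN28B and let-7 axis.

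The let-7 family is shown because its shared seed, the part that pairs with target mRNAs, is what ties HMGA2, LIN28B and the IGF2BP genes together. The sequences are those of mouse in RefSeq (GRCm38.p6), the labelled species, and human sequences were not used here. In each line the capitals mark the seed, bases 2 to 8, read 5′ to 3′.
mmu-let-7a-5p: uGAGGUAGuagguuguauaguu
mmu-let-7g-5p: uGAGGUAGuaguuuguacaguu
mmu-miR-98-5p: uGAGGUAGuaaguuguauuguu
They lie at chr13:48538239-48538260 on the minus strand, chr9:106178846-106178867 on the plus strand and chrX:151913229-151913250 on the plus strand. All 9 mature let-7 and miR-98 sequences in that table were 22 bases long, carried 1 seed, GAGGUAG, and differed outside it. Mature microRNAs are not measured in the expression table.

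RNA-seq values were used for 8 libraries of 62044121 to 73680756 counts. Of the kept genes, 11536 had a mean FPKM (fragments scaled to gene length and library size) of at least 1 and were tested. Levels between libraries are given as CPM, counts scaled to library size with TMM factors, and fold changes are rFGF4 over PBS. Basal keratinocyte markers were at that level for 8 of 8 genes. They summed to 2231 to 2553 FPKM in the PBS libraries and 2050 to 2166 FPKM in the rFGF4 libraries, lower in the latter and without overlap. Of these 8 genes 1 fell (KRT15, −0.56 on the log2 scale, edgeR adjusted p = 0.0184) and 7 did not pass, and their median log2 fold change was 0.06. Of the fibroblast (7 genes), melanocyte (5) and skeletal muscle (5) markers 0 reached a mean FPKM of 1, and of the leukocyte and endothelium markers 1 each did, CD68 and CDH5. Fibroblast markers summed to 0.776 to 0.864 FPKM in the PBS libraries and to 0.411 to 0.517 FPKM in the rFGF4 libraries, low in both groups and without overlap. Endothelium markers summed to 1.86 to 3.09 and 3.08 to 4.09 FPKM, and leukocyte markers to 7.21 to 8.56 and 7.88 to 10.6 FPKM, both with overlap. PTPRC, the pan-leukocyte gene, had a mean of 0.00319 FPKM. Of the 6 cell types checked, only basal keratinocytes had all their markers at a mean FPKM of at least 1, although the labels name skin. The part of these marker differences in the results below was not tested. In bulk libraries, fewer cells of a type and less RNA per cell cannot be told apart.

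RPSAP52 was higher in every rFGF4 library than in any PBS library. It spans chr12:65758020-65826974 on the minus strand, in the coordinates of the table, whose genome build the sources used here do not name. RPSAP52 stood at 1.31, 1.38, 1.49 and 2.16 CPM in PBS replicates 1 to 4 and at 6.30, 7.20, 7.03 and 6.54 CPM in rFGF4 replicates 1 to 4. The lowest rFGF4 library was 2.92-fold above the highest PBS library, and PBS replicate 4 lay above the other PBS libraries. Group means were 1.59 ± 0.39 and 6.77 ± 0.42 CPM (SD, n = 4), a 4.27-fold difference or 2.09 on the log2 scale (SE 0.17, edgeR). Fitted values without any 1 library ran from 2.01 to 2.28. The counts behind these levels were 88 to 138 in the PBS libraries and 450 to 524 in the rFGF4 libraries. About 4 deposited counts appear to stand for 1 fragment, so the PBS values rest on few fragments.

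HMGA2, on the opposite strand, had the same direction on average and far more spread. It lies at chr12:65824131-65966295 on the plus strand and encodes the HMGA protein that is largely silent in adult tissue. HMGA2 stood at 16.8, 4.64, 17.0 and 13.6 CPM in PBS replicates 1 to 4 and at 36.0, 36.4, 9.92 and 31.7 CPM in rFGF4 replicates 1 to 4. PBS replicate 2 and rFGF4 replicate 3 were low within their groups, and because of rFGF4 replicate 3 the groups overlapped. The means were 13.0 ± 5.78 and 28.5 ± 12.6 CPM (SD, n = 4), a log2 difference of 1.13 (SE 0.49). It was 0.85 (SE 0.41) without PBS replicate 2, 1.42 (SE 0.39) without rFGF4 replicate 3 and 1.13 (SE 0.13) without both, the pair being chosen after the values were seen. RPSAP52 was not low in the same libraries, at 1.38 and 7.03 CPM. A single library below 0.5 of the lowest of the other 3 of its group occurred for 475 of the tested genes (4.12%), between 54 and 92 genes per library. HMGA2 was 1 of 71 such genes in PBS replicate 2 and 1 of 68 in rFGF4 replicate 3, and 5 genes were low in both. MYC, a let-7 target, was among those in rFGF4 replicate 3. The part of the authors' estimation in these low values was not tested.

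**Figure D1:**
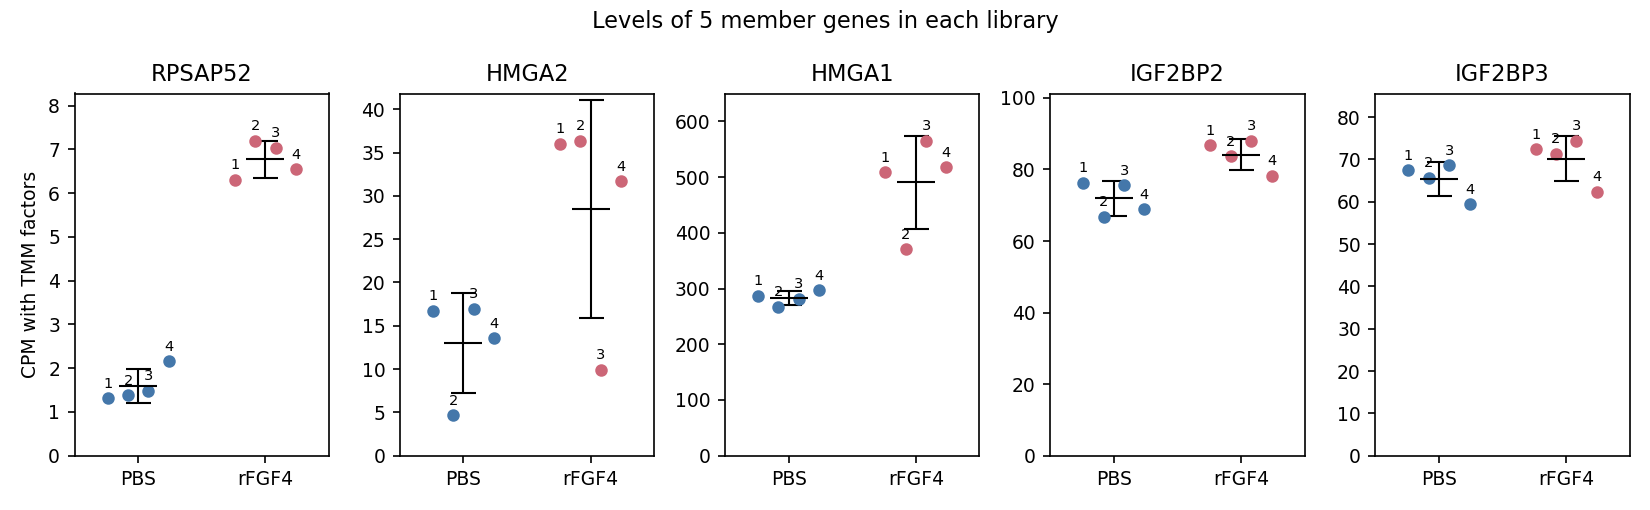
CPM (linear axis from 0) of RPSAP52, HMGA2, HMGA1, IGF2BP2 and IGF2BP3 in 4 PBS (blue) and 4 rFGF4 (red) libraries; points carry the replicate number, bars are mean and SD. The groups do not overlap for RPSAP52, HMGA1 and IGF2BP2, and HMGA2 is low in PBS replicate 2 (4.64 CPM) and rFGF4 replicate 3 (9.92 CPM).

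HMGA1, the family member of proliferating cells, was the most abundant of the 7 genes and was also higher in every rFGF4 library. It lies at chr6:34236873-34246231 on the plus strand. HMGA1 stood at 287, 267, 282 and 297 CPM in PBS replicates 1 to 4 and at 509, 371, 565 and 517 CPM in rFGF4 replicates 1 to 4. rFGF4 replicate 2 was the lowest of its group and still 1.25-fold above the highest PBS library. The means were 283 ± 12.3 and 491 ± 83.5 CPM (SD, n = 4), a 1.73-fold difference or 0.79 on the log2 scale (SE 0.12). It was 0.91 (SE 0.06) without rFGF4 replicate 2, and ran from 0.72 to 0.91 without any 1 library. Per length, 97.2% of the tested genes had a lower mean than HMGA1 in the PBS libraries.

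Of the IGF2BP genes, IGF2BP2 and IGF2BP3 were expressed and IGF2BP1 was at the limit of detection. IGF2BP2, at chr3:185643739-185825056 on the minus strand, stood at 76.4, 66.7, 75.6 and 68.9 CPM in PBS replicates 1 to 4. In rFGF4 replicates 1 to 4 it stood at 86.7, 83.7, 88.0 and 78.3 CPM. The lowest rFGF4 library was 1.02-fold above the highest PBS library, so the groups only just separated. The log2 difference of IGF2BP2 was 0.23 (SE 0.07), from 71.9 ± 4.79 to 84.2 ± 4.34 CPM (SD, n = 4). IGF2BP3, at chr7:23310209-23470491 on the minus strand, stood at 67.5, 65.7, 68.6 and 59.5 CPM in PBS replicates 1 to 4 and at 72.3, 71.3, 74.4 and 62.4 CPM in rFGF4 replicates 1 to 4. Its groups overlapped, replicate 4 was the lowest in both, and its log2 difference was 0.10 (SE 0.07). IGF2BP1, the paralogue best known from embryonic tissue and at chr17:48997385-49056145 on the plus strand, had 4, 15, 8 and 8 counts in the PBS libraries and 4, 10, 11 and 12 in the rFGF4 libraries. The floor used here is 12 counts, about 3 fragments, and only PBS replicate 2 was above it, so no fold is given. LIN28B, at chr6:104936616-105080479 on the plus strand, had 0 counts in all 8 libraries, which allows up to 0.162 to 0.192 CPM per library. LIN28A, the paralogue of LIN28B, likewise had 0 counts in all 8.

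Of the 7 genes, 3 had groups that did not overlap, all with the rFGF4 libraries higher. Among all tested genes 19.3% did not overlap, 10.1% higher and 9.26% lower, but nothing is read from the comparison because the members were chosen with this contrast known. RPSAP52 and HMGA2 also reached a mean FPKM of 1 only through the rFGF4 libraries, having 0.642 ± 0.154 and 0.705 ± 0.320 FPKM in the PBS libraries (SD, n = 4). A total of 5 members passed that filter, and IGF2BP1 and LIN28B did not.

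The order of the levels per length was nearly the same in both groups. In the PBS libraries HMGA1 stood at 102 ± 4.34 FPKM, IGF2BP2 at 12.7 ± 1.01, IGF2BP3 at 6.40 ± 0.49, HMGA2 at 0.705 ± 0.320, RPSAP52 at 0.642 ± 0.154 and IGF2BP1 at 0.0113 ± 0.0066 FPKM (SD, n = 4). The ranges of neighbours in that order did not overlap, except for HMGA2 and RPSAP52. In the rFGF4 libraries RPSAP52 (2.73 ± 0.22 FPKM) lay above HMGA2 (1.52 ± 0.69 FPKM), with ranges that did not overlap. The other places were the same. In CPM, which is not scaled to length, HMGA2 was the higher in the rFGF4 libraries, at 28.5 against 6.77 CPM. The order of these genes, and their FPKM ratio, therefore rest on the gene lengths behind FPKM. Within libraries, the ratio of RPSAP52 to HMGA2 FPKM was 0.586, 2.23, 0.655 and 1.20 in PBS replicates 1 to 4 and 1.32, 1.5, 5.39 and 1.56 in rFGF4 replicates 1 to 4. The highest ratio in each group belonged to the library in which HMGA2 was low. The ratio of IGF2BP2 to IGF2BP3 FPKM was steadier, at 1.83 to 2.09 in the PBS libraries and 2.12 to 2.26 in the rFGF4 libraries. Its size rests on the lengths too, since the PBS means were 71.9 CPM for IGF2BP2 and 65.3 CPM for IGF2BP3.

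**Figure D2:**
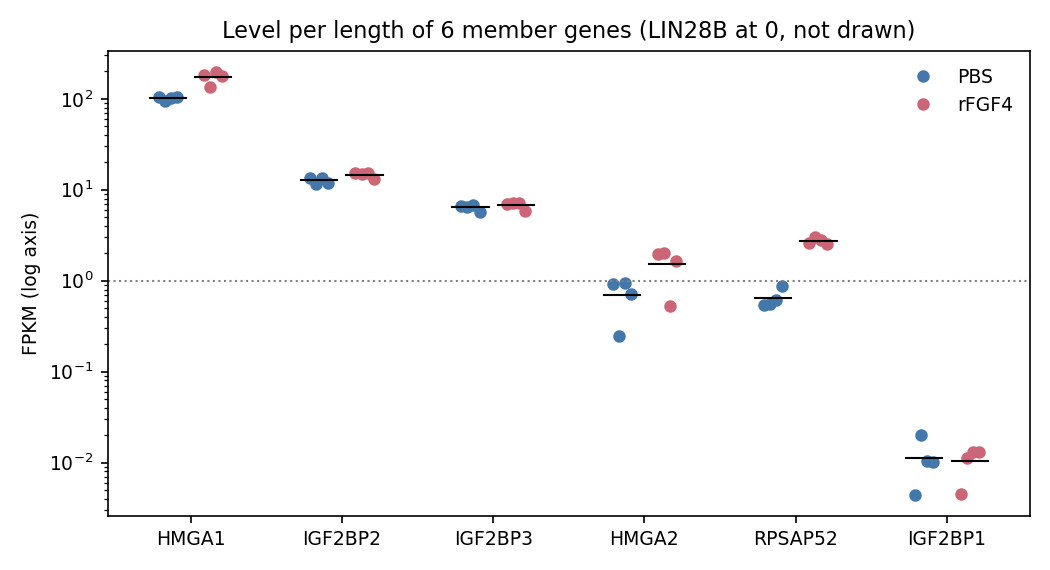
FPKM on a log axis for 6 member genes in each PBS (blue) and rFGF4 (red) library; black lines are group means and the dotted line is the filter at a mean FPKM of 1. HMGA1 lies near 100 FPKM, IGF2BP1 near 0.01, and RPSAP52 and HMGA2 lie on either side of 1.

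RPSAP52 and HMGA2 are arranged head to head with overlapping starts. The RPSAP52 row begins 2843 bases inside HMGA2 and runs away from it, so 2844 bases are shared, 4.12% of the RPSAP52 span and 2.00% of the HMGA2 span. Whether counting used the strand is likewise not named there, and reads from the shared stretch cannot be told apart without it. The HMGA2 span also holds HMGA2-AS1, whose highest level in any library was 0.0326 FPKM. Another concern for RPSAP52 is its parent gene. RPSA, which encodes a protein of the small ribosomal subunit, stood at 179 ± 10.1 FPKM in the PBS libraries and 168 ± 9.85 FPKM in the rFGF4 libraries (SD, n = 4), or −0.07 on the log2 scale (SE 0.08, adjusted p = 0.632 by edgeR). Of RPSA and its 73 other pseudogene rows 12 were tested, and 0 passed by edgeR, with 1 at an unadjusted p under 0.05 and 1 by DESeq2, against 10.0% called among all tested genes. The abundant RPSAP15 (76.7 and 71.7 FPKM), RPSAP47 (68.7 and 60.0 FPKM) and RPSAP58 (63.5 and 58.9 FPKM) were all lower on average in the rFGF4 libraries. The median log2 fold change of these 12 rows was −0.07, against 0.00 for all tested genes. For HMGA1, 8 pseudogene rows were present, the highest with a mean of 1.93 FPKM. The IGF2BP3 row shares 1521 bases with MALSU1, a gene of the mitochondrial ribosome on the other strand.

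At the wider HMGA2 locus few genes were tested, too few for the share called to be read. Of 41 other rows within 1 Mb of HMGA2, 19 had 0 counts in every library and 5 were tested, of which 1 rose and 1 fell, against 10.0% called among all tested genes. LLPH, a nucleolar protein gene 292.4 kb downstream of the HMGA2 start, went from 59.3 ± 1.56 to 70.5 ± 2.31 CPM (SD, n = 4), and rose by 0.25 on the log2 scale (SE 0.05, edgeR adjusted p = 0.018). GRIP1, a synaptic scaffold gene 523.3 kb downstream, fell by 0.41 (SE 0.10, adjusted p = 0.0339). TMBIM4 (−0.08, SE 0.12) and LEMD3 (0.05, SE 0.09) did not pass. LLPH passed only while PBS replicates 1 and 2 and rFGF4 replicates 1 and 3 were all present, and not with limma. GRIP1 passed with PBS replicate 4 or rFGF4 replicate 1 left out, and not with any other library left out or with no filter on low values. LINC02454, a noncoding row at −211.1 kb that was named after its values were seen, was below the filter, at 0.301 ± 0.170 FPKM in the PBS libraries and 0.776 ± 0.195 FPKM in the rFGF4 libraries.

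**Figure D3:**
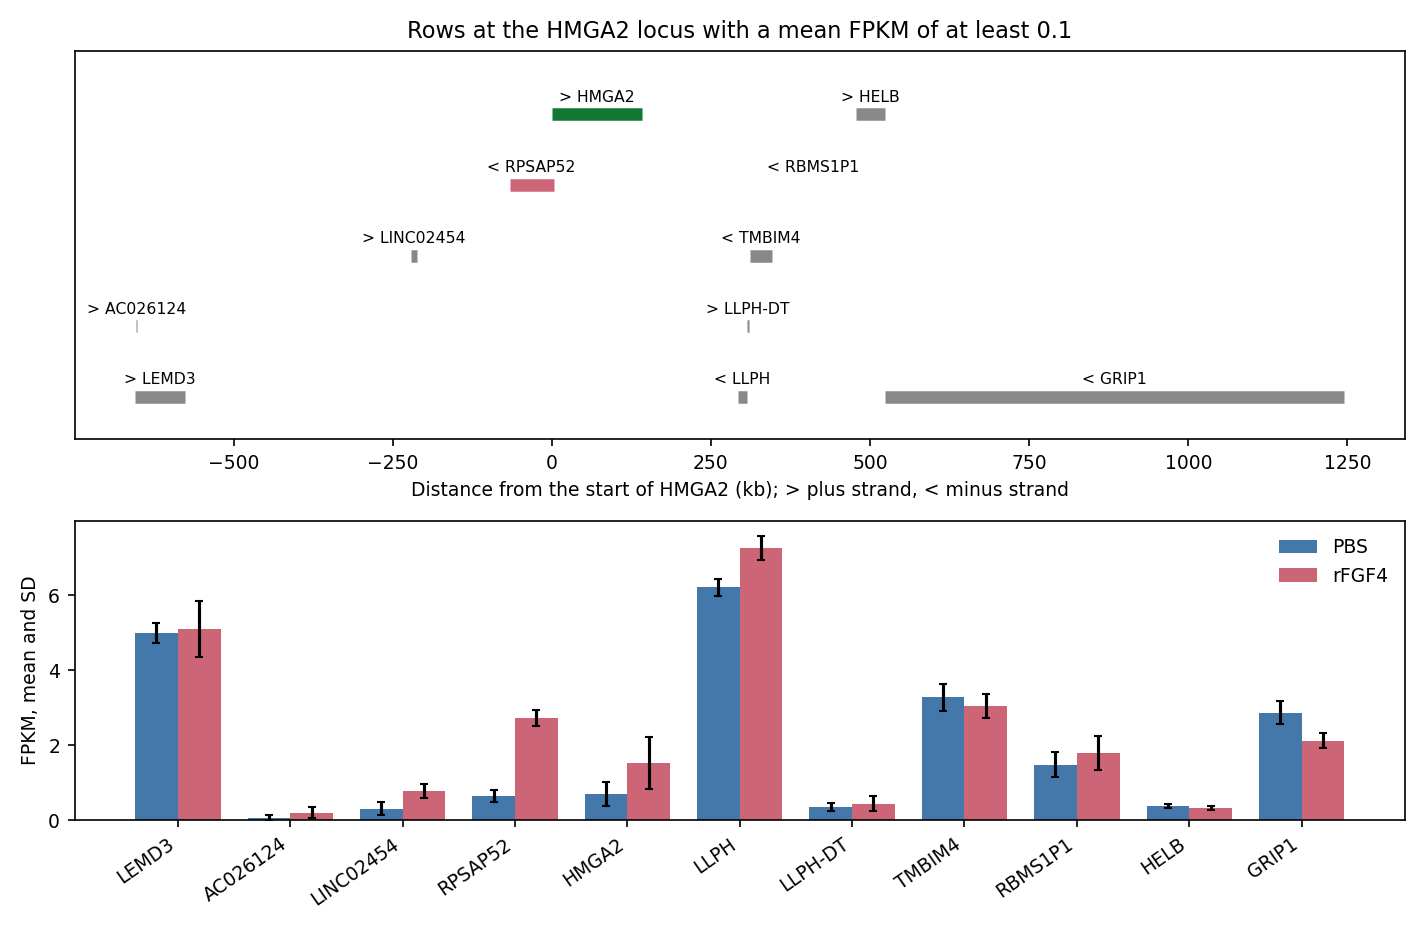
Upper panel, the 11 rows at the locus with a mean FPKM of at least 0.1, drawn to scale by distance in kb from the HMGA2 start; lower panel, their mean FPKM with SD in the PBS (blue) and rFGF4 (red) libraries. RPSAP52 and HMGA2 meet at 0, and RPSAP52 goes from 0.642 to 2.73 FPKM, with smaller differences relative to their level at LEMD3, LLPH, TMBIM4 and GRIP1.

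Among genes that process or destroy let-7 precursors, 2 of 17 tested rose and 0 fell. Of all tested genes 5.49% were higher and 10.0% were called in either direction, so the share called was near the background. AGO2, the Argonaute that cleaves targets, went from 80.6 to 119.8 CPM, a log2 rise of 0.57 (SE 0.12, edgeR adjusted p = 0.0241). XPO5, which exports microRNA precursors from the nucleus, went from 102.5 to 131.6 CPM, a log2 rise of 0.36 (SE 0.08, adjusted p = 0.0289). DICER1, which cuts precursors to their mature length and is itself a let-7 target, did not pass (0.02, SE 0.18). The list median was 0.03, and DROSHA (0.03), DGCR8 (0.10), DIS3L2 (0.03) and TUT7 (−0.06) did not pass either. The count stayed at 2 with rFGF4 replicate 4 left out. It was 1 when PBS replicate 1, PBS replicate 3 or rFGF4 replicate 2 was left out, and 0 for each other library and with limma. Of the 17 let-7 gene rows, 15 were below the filter, 6 of the 17 had 0 counts throughout, and the tested host genes WDR82 (−0.08) and HUWE1 (−0.14) did not pass, with 0 at an unadjusted p under 0.05 and 0 by DESeq2.

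Of the other let-7 targets, 4 of 23 tested rose and 0 fell, against 5.49% of all tested genes higher and 10.0% called in either direction. CCND1, which drives entry into S phase, stood at 478, 443, 506 and 477 CPM in PBS replicates 1 to 4 and at 678, 673, 690 and 674 CPM in rFGF4 replicates 1 to 4. The groups were far apart, and CCND1 rose by 0.51 (SE 0.05, edgeR adjusted p = 0.00108). CDK6, the kinase partner of the D cyclins, rose by 0.52 (SE 0.12, adjusted p = 0.03), and CDC25A, a phosphatase that activates cyclin-dependent kinases, by 0.34 (SE 0.08, adjusted p = 0.0298). THBS1, a matrix protein, rose by 0.53 (SE 0.12, adjusted p = 0.0312). MYC (−0.46, SE 0.61), IGF1R (−0.07, SE 0.06), NRAS (0.01) and HRAS (0.02) did not pass, and the list median was 0.03. CCND1 passed in every alternative, while the count for the list was 1 to 3 with any 1 library left out and 2 with limma. CDC25A passed only when the library left out was PBS replicate 2. CDK6 passed only for rFGF4 replicate 2 or 4, and THBS1 only for PBS replicate 3 or rFGF4 replicate 4.

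Among mRNAs known as IGF2BP clients, 1 of 15 tested rose and 2 fell, against 10.0% called among all tested genes. CCND1, on this list too, rose. LAMB2, a laminin chain, went from 77.9 to 53.5 CPM, and fell by 0.54 on the log2 scale (SE 0.09, edgeR adjusted p = 0.00655). IGF2, which gave the family its name, had 0 counts in 7 libraries and 0.16 CPM in rFGF4 replicate 4, and H19, the noncoding RNA next to it, had group means of 0.335 and 0.173 CPM. ACTB (0.11) and CD44 (0.37) did not pass, and the list median was −0.12. By edgeR 7 of the 15 had an unadjusted p under 0.05, against 2896 of all 11536 tested genes. Groups did not overlap for 3 genes that were higher and 3 that were lower, against 19.3% of all tested genes. Leaving out rFGF4 replicate 2 raised the count to 5.

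None of the 10 ribonucleoprotein partners of the IGF2BPs passed by edgeR, with 0 at an unadjusted p under 0.05 and 0 by DESeq2. With 10.0% of all tested genes called, so short a list says little by its count. YBX1 (0.17), SYNCRIP (0.30), HNRNPU (0.04) and DHX9 (−0.02) are among them, and the list median was 0.08. Without rFGF4 replicate 2, or without rFGF4 replicate 4, 1 of them passed. Of 18 m6A writers, erasers and readers 2 rose and 0 fell, against 10.0% of all tested genes called, so the share called was near the background. RBM15, a subunit of the m6A writer complex, stood at 3.99, 4.20, 3.56 and 5.07 CPM in PBS replicates 1 to 4 and at 9.17, 10.6, 7.54 and 14.5 CPM in rFGF4 replicates 1 to 4. The groups of RBM15 did not overlap, and it rose by 1.31 (SE 0.21, edgeR adjusted p = 0.00655), also in every alternative. YTHDF1, an m6A reader, rose by 0.31 (SE 0.06, adjusted p = 0.018), a call that needed PBS replicates 1 and 2 and rFGF4 replicates 1 and 3 to be present. The writer METTL3 (0.05) and the eraser ALKBH5 (0.06) did not pass, and the list median was 0.05.

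Of 13 tested genes described as regulated by HMGA proteins, 3 fell and 0 rose. Among all tested genes 4.54% were lower and 10.0% were called in either direction. ID3, an inhibitor of basic helix-loop-helix factors, went from 160.2 to 97.1 CPM, and fell by 0.72 (SE 0.15, edgeR adjusted p = 0.0226). IGFBP3, which binds insulin-like growth factors, fell by 0.36 (SE 0.07, adjusted p = 0.0114), and the mitotic cyclin CCNB2 by 0.25 (SE 0.06, adjusted p = 0.0339). CCNA2 (−0.05), E2F1 (0.17) and CDH1 (−0.25) did not pass, and SNAI1 and TWIST1 were below the filter. The list median was −0.08, and the count dropped to 1 with PBS replicate 2, PBS replicate 4, rFGF4 replicate 1 or rFGF4 replicate 3 left out. Of 15 other HMG-box and HMGN chromatin proteins, TFAM (0.25, SE 0.06) and HMGXB3 (0.23, SE 0.06) rose and 0 fell, a share near the 10.0% called among all tested genes. TFAM packages mitochondrial DNA. HMGN2 (−0.32), HMGB2 (−0.13) and HMGB1 (−0.03) did not pass, and the list median was −0.09. Both rises were lost with limma, with no filter and without each library but rFGF4 replicate 4.

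**Figure D4:**
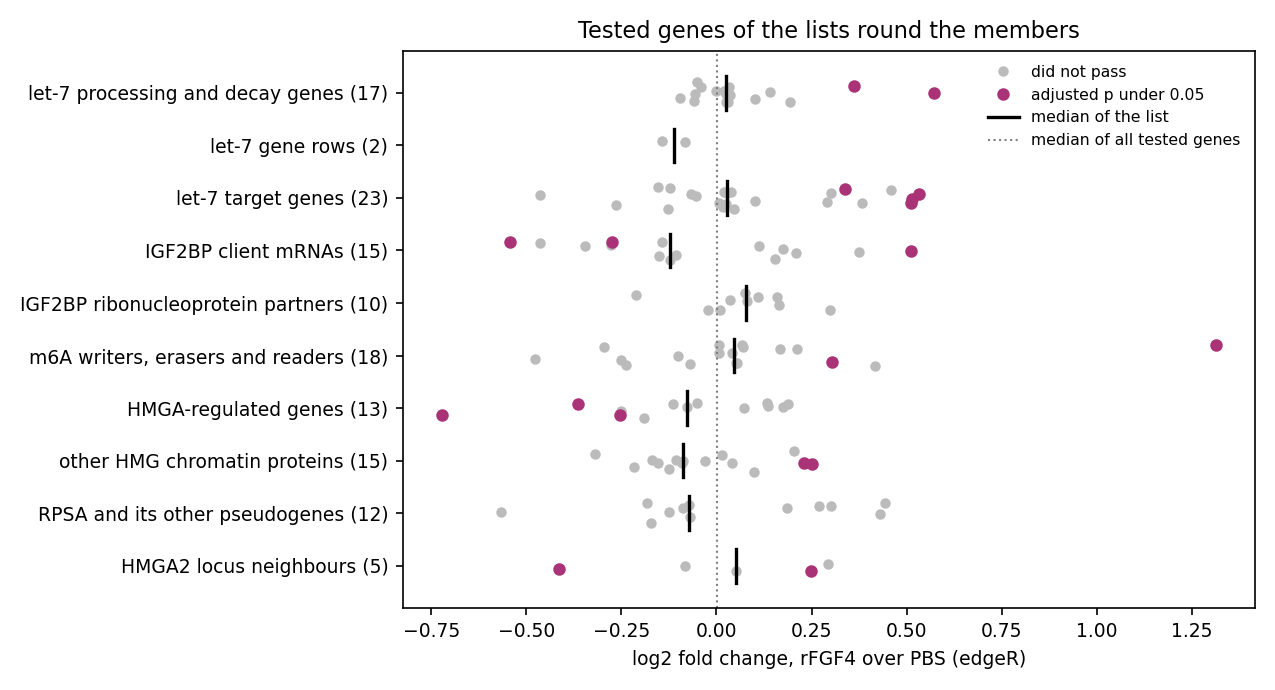
log2 fold change (rFGF4 over PBS, edgeR) of each tested gene in 10 lists, with the number tested in brackets; purple points passed an adjusted p of 0.05, black bars are list medians and the dotted line is the median of all tested genes. List medians lie between −0.12 and 0.08, and RBM15 at 1.31 lies farthest from 0.

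The profiles of RPSAP52 and HMGA2 over the libraries had different nearest neighbours. Likeness was the root mean square difference of log2(CPM + 0.5) over the 8 libraries after each gene's own mean was subtracted. The added 0.5 makes differences smaller for genes at low levels, RPSAP52 among them. Nearest to RPSAP52 were DUSP4 (0.21), a phosphatase that acts on MAP kinases, TMEM171 (0.24), the AP-1 subunit FOSL1 (0.25), the ETS factor ETV4 (0.26) and ARHGAP25 (0.27), a GTPase-activating protein. All 5 separated the groups, which follows largely from the choice, since the RPSAP52 profile separates them too. The log2 fold changes were 1.78, 1.78, 2.08, 1.41 and 1.48 in that order. Of these genes, DUSP4 (0.616 FPKM in the PBS libraries) and ARHGAP25 (0.706 FPKM) passed the filter only through the rFGF4 libraries. Nearest to HMGA2 were TMEM120B (0.43), ASB1 (0.45), NUDT3 (0.46), LINC00342 (0.50) and ZMAT3 (0.53), whose groups overlapped and which, like HMGA2, had their lowest PBS value in PBS replicate 2. ASB1 stood at 10.2 CPM there and was at 11.6 CPM in rFGF4 replicate 3, while the other 6 libraries ran from 31.3 to 47.5 CPM. TMEM120B (0.896 FPKM in the PBS libraries) and ZMAT3 (0.824 FPKM) also passed the filter only through the rFGF4 libraries. HMGA2 ranked 2085 in likeness to RPSAP52, with a difference of 0.84. These are nearest genes among all tested, so their likeness is a description, and the points share the same 8 libraries.

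**Figure D5:**
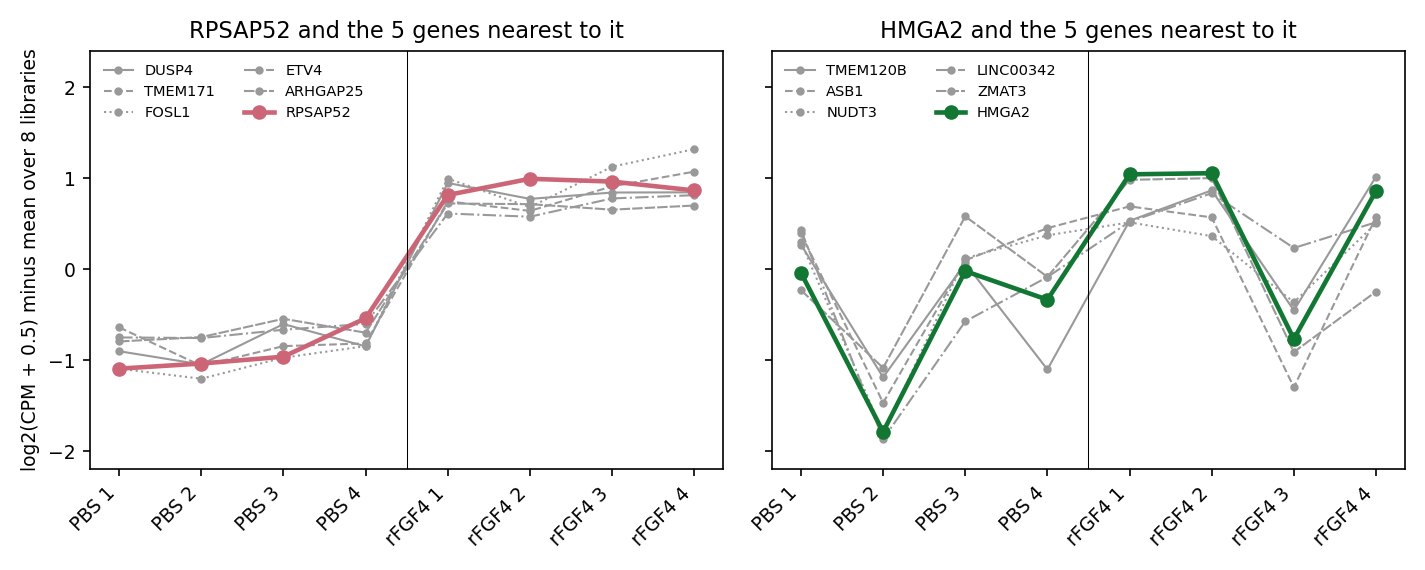
log2(CPM + 0.5) minus its mean over the 8 libraries, for RPSAP52 (left) and HMGA2 (right) in colour and their 5 nearest genes in grey; the vertical line parts PBS from rFGF4 libraries. RPSAP52 steps up between the groups, while HMGA2 dips in PBS replicate 2 and rFGF4 replicate 3.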

How the data were processed

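RNA-seq values of 8 libraries, 4 PBS and 4 rFGF4, were read from 1 deposited table and matched to the samples by column name. The submitters' processing notes name HISAT2 2.0 and StringTie 1.3.0 without their roles, while build, annotation and strand use are not named. The authors deposited FPKM, per the file headers, and a value of 0.0001 or less was read as 0. The authors also deposited counts, per the file headers, which are whole numbers, often multiples of 4, and were treated as estimated counts. The ratio of count to FPKM varied within a gene by an SD of 0.0011 on the log2 scale over 10454 genes.

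Y-chromosome genes, XIST and TSIX (521 of 58825) were left out because the table is human. Counts were fitted with edgeR 4.0.16 in R 4.3.3 (TMM, glmQLFit and glmQLFTest, Benjamini-Hochberg over 11536 genes, threshold 0.05), and the SE was taken from the log2 fold change and its F statistic. In simulated counts for these 11536 genes, the fit recovered 32.8% of genes changed 1.5-fold, 77.6% of those changed 2-fold and 95.5% of those changed 4-fold. It made 5 false calls. The changed genes were a sample drawn without those of lowest mean CPM, so recovery of the lowest genes was not measured. Alternatives used DESeq2 1.42.0, limma 3.58.1 on log2(FPKM + pseudocount), other filters and left-out libraries. Floors cover counting error only.

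Members, lists and tests were chosen with earlier results of these data known. Named were all members, up to 4 called genes per list with the smallest p, LIN28A, DICER1, IGF2, H19, MYC, IGF1R, RPSA, tested coding neighbours, and the 5 genes nearest to RPSAP52 and to HMGA2. Other named genes were chosen after their values were seen. Of 152 list names (genes on 2 lists counted in each), 1 (MIRLET7DHG) had no entry. Where a symbol had 2 entries (IGF2, MATR3), that with the higher mean FPKM was used. Results for 2 genes of the lists are not reported here, although list counts include them.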

Additional observations from a re-analysis of the deposited data

Results flagged for a closer look

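Of 81 groups of 4 libraries checked among the genes named, 3 held a library whose gap to the others was large against the group's range, and chance gives such a gap in about 1 of 20 groups. ASB1, one of the genes nearest to HMGA2, stood at 11.6 CPM in rFGF4 replicate 3, while rFGF4 replicates 1, 2 and 4 ran from 43.6 to 47.5 CPM. TFAM stood at 70.9 CPM in rFGF4 replicate 4, while rFGF4 replicates 1 to 3 ran from 80.1 to 81.3 CPM. IGF2 stood at 0.16 CPM in rFGF4 replicate 4 and at 0 in the other 3, and this value is below the floor of 0.175 CPM for that library.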

How the results depend on the processing

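The log2 differences of RPSAP52, HMGA2, HMGA1, IGF2BP2 and IGF2BP3 kept their sign under all 19 alternatives run. The members were chosen with this contrast known, so the kept sign is a description. For RPSAP52, HMGA1 and IGF2BP2, whose groups did not overlap, leaving out a library could hardly change it. The ranges, in the order first named, were 1.19 to 2.28, 0.54 to 1.42, 0.68 to 0.91, 0.17 to 0.26 and 0.06 to 0.15. The lowest values for RPSAP52 and HMGA2 came from limma with a pseudocount of 1, which compresses low levels. Genes past the threshold numbered 1157 (633 higher, 524 lower) and 1828 with DESeq2 (982 and 846). With 1 library left out they numbered 601 to 1166, with 732, 601 and 768 without PBS replicate 1, 2 or 3, and 715 and 675 without rFGF4 replicate 1 or 3. Without PBS replicate 2 and rFGF4 replicate 3 together they numbered 234, a setting chosen after seeing the data that also leaves fewer samples.

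List counts moved with the setting, and for the rest the cause was not tested. With 1 library left out, the let-7 processing count (2) ran from 0 to 2, let-7 targets (4) from 1 to 3, IGF2BP clients (3) from 2 to 5, IGF2BP partners (0) from 0 to 1, m6A genes (2) from 1 to 3, HMGA-regulated genes (3) from 1 to 3, other HMG proteins (2) from 0 to 2 and locus neighbours (2) from 0 to 2. With both libraries named above left out, these were 0 for let-7 processing, HMGA-regulated genes, other HMG proteins and locus neighbours, and 1 for let-7 targets, IGF2BP clients and m6A genes. With limma at each of the pseudocounts 1, 0.1 and 0.01, 0 let-7 processing genes, 2 let-7 targets, 0 other HMG proteins and 1 locus neighbour passed. With DESeq2, 5 IGF2BP clients and 1 RPSA row passed. For other HMG proteins the count was 1 after median-of-ratios scaling, 1 with the FPKM filter lowered to 0.1, 1 with filterByExpr and 0 with no filter, where 1 locus neighbour passed.

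Whether replicate numbers pair the samples cannot be settled from 4 libraries per group. Deviations of same-numbered libraries correlated at 0.12, 0.06, −0.02 and 0.27, and those of other pairs at −0.186 to 0.0783. The pair numbered 4 had the highest value, but not every library correlated best with its own number. With the replicate number as a block 1013 genes passed, the let-7 processing count was 1 and that of other HMG proteins 0, and no other list count moved by over 1.5 times. Depth limits IGF2BP1, LIN28B and the PBS levels of RPSAP52.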
